A study of Mus musculus with 6 samples.

Results

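The genes examined were 10 members of the Nodal pathway and of the anterior visceral endoderm: Nodal, Tdgf1, Lefty1, Lefty2, Cer1, Dkk1, Hhex, Otx2, Lhx1 and Gsc. They were chosen by name, as 10 of the 21938 protein-coding genes of the mm10 GENCODE annotation, and every GATA4 or GATA6 region called in the gene body or within 50 kb of a transcription start site (TSS) was assigned to them. Once overlapping calls of all libraries were merged, 125 of 201994 regions lay near a member. CUT&RUN, in which an antibody guides a nuclease to cut out the DNA beside a bound protein, had been carried out for GATA4 and for GATA6 in mouse XEN cells, the stem cells of the extra-embryonic endoderm. Each factor had 3 libraries from 500000 cells per sample, and the labels state a depth of 30 M reads per sample. All 6 libraries carry the genotype label 3F2, a XEN line derived from blastocysts that carried an Oct4-GFP reporter, the R26 M2rtTA transactivator and a doxycycline-inducible Oct4, Klf4, Sox2 and mCherry cassette at Col1a1, which both groups therefore share. The methods text names a further line, 3F6, and fewer replicates. The labels were followed, and nothing in them says that the libraries came from separate cultures, so any p-value measures only the spread between these libraries.

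Nodal is a TGF-beta family ligand that patterns the early embryo, and Tdgf1 (Cripto) is its co-receptor. Lefty1, Lefty2 and Cer1 encode secreted antagonists of Nodal, and Dkk1 encodes a secreted antagonist of Wnt signalling. The anterior visceral endoderm, a derivative of the primitive endoderm, secretes such antagonists towards the neighbouring epiblast and so helps to set the anterior side of the embryo. Hhex, Otx2, Lhx1 and Gsc encode homeodomain transcription factors known from this tissue. The data hold binding regions and no expression, so whether these XEN cells transcribe any of the 10 genes, and whether they resemble the anterior visceral endoderm, cannot be read from them.

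A region is called combined here when it was called in all 3 libraries of a factor. Across the series, a library held between 42446 and 49597 regions, and its regions typically rested on few fragments: maximum signal, meaning how many fragments overlapped at a region's peak, had a median of 4 in every list. Signal was not scaled for sequencing depth, so maximum signal is given per library as a description, and no difference between the factors is drawn from it. Rank is given as a percentile, the share of regions in the same library's list with the same or a lower total signal, ties taking their mean rank. Total signal is the fragment pileup summed over the region and so rises with its width. No IgG control entered the calls as described.

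The combined regions fell at 6 of the 10 genes, the same 6 for both factors: Tdgf1, Lefty1, Lefty2, Dkk1, Otx2 and Lhx1. No region near Nodal, Cer1, Hhex or Gsc was called in all libraries of either factor. The counts of 6 of 10 stood beside 48.2% of all protein-coding genes with a GATA4 combined region in the same kind of window and 38.3% with a GATA6 one, and with 10 genes chosen by name neither count was tested. They came from 11 of the 8282 GATA4 combined regions and 7 of the 5170 GATA6 combined regions. Lefty1 and Lefty2 are neighbours whose windows overlap and share 1 region per factor, so the members form 9 loci. Within 1 kb of a TSS, only Dkk1 had a GATA4 combined region, where 19.8% of all genes had one. None of the 10 had a GATA6 combined region that close, where 13.8% of all genes did. Each GATA6 combined region near a member overlapped a GATA4 combined region, 7 of 7, as did 72.3% of the whole GATA6 list. Of the 11 GATA4 regions, 8 overlapped a GATA6 one, as did 45.2% of the whole GATA4 list.

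The sequences that carry these regions are shown before their values. Each is 150 bases of the GRCm38 (mm10) assembly, plus strand, centred on the stretch of maximum signal, with the GATA motif in capitals on either strand. The motif, WGATAR by name, was searched as AGATAA or AGATAG or TGATAA or TGATAG and may overlap itself. The first Dkk1 sequence, chr19:30516485-30516634, comes from the region with the most stacked fragments near any member. The second, chr19:30526818-30526967, was added after its values were seen because it holds the most motifs around the centre of maximum signal. Over their whole length, the broader Dkk1 regions hold more. The Lefty sequence, chr1:180903029-180903178, the Otx2 sequence, chr14:48648116-48648265, and the Lhx1 sequence, chr11:84513603-84513752, are from the region of highest mean percentile at each locus. At Tdgf1 the rule chose a region largely within a UTR of Lrrc2. The sequence shown instead, chr9:110937893-110938042, is from the only combined region there whose nearest protein-coding TSS was that of Tdgf1. It was also added after its values were seen.
Dkk1, farther: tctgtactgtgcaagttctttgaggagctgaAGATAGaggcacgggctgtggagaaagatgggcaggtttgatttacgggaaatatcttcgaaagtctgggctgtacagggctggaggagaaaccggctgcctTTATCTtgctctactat
Dkk1, nearer: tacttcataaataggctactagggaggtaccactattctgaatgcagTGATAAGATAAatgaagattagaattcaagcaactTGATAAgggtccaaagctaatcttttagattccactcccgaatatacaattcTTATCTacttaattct
Lefty1 and Lefty2: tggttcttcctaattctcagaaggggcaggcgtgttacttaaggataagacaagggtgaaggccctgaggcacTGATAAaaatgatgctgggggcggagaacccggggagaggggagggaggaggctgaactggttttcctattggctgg
Otx2: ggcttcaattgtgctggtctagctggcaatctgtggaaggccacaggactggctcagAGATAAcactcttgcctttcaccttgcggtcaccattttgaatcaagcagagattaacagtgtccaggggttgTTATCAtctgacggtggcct
Tdgf1: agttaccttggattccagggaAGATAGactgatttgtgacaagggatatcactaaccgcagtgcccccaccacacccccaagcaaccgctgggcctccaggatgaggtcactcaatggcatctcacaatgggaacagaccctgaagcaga
Lhx1: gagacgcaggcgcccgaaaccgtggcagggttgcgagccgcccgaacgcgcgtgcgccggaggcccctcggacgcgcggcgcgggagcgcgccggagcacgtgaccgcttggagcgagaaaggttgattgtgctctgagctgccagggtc

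The printed Dkk1 windows hold 2 and 4 motif matches, the Otx2 window 2, the Lefty and Tdgf1 windows 1 each, and the Lhx1 window 0. The Lhx1 window also differs in composition, with 72.7% GC against 33.3% to 54.0% in the other 5.

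Nodal itself, at chr10:61417972-61425338 on the plus strand, had 10 merged regions in its window, 7 of them called in 1 library. The GATA4 libraries held 1, 3 and 3 regions and the GATA6 libraries 4, 1 and 3, so the groups overlapped. The best supported were called in 3 of 6 libraries, and both lay at the neighbouring gene Eif4ebp2, which encodes a repressor of translation initiation. The region chr10:61452635-61453095, over the Eif4ebp2 TSS and 34663 bp from that of Nodal, reached a maximum signal of 8 and 7 in GATA4 replicates 2 and 3 and 6 in GATA6 replicate 3. The region chr10:61451492-61452006, in an Eif4ebp2 intron, reached 6 in GATA4 replicate 1 and 5 and 4 in GATA6 replicates 2 and 3. Neither region was called in every library of one factor. Following in the same rule was chr10:61440011-61440601, another Eif4ebp2 intron, called in GATA4 replicate 2 and GATA6 replicate 1. Only 2 of the 10 regions were nearer to the Nodal TSS than to any other protein-coding TSS. One lay 5932 bp upstream and was called in GATA4 replicate 3, and the other lay in a Nodal intron, 2368 bp from the TSS, and was called in GATA6 replicate 3. Neither exceeded a maximum signal of 3, below the list median of 4. The closest combined regions were 57475 bp away for GATA4 and 261981 bp for GATA6, and 50.2% and 67.7% of all genes had a nearer one.

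**Figure D1:**
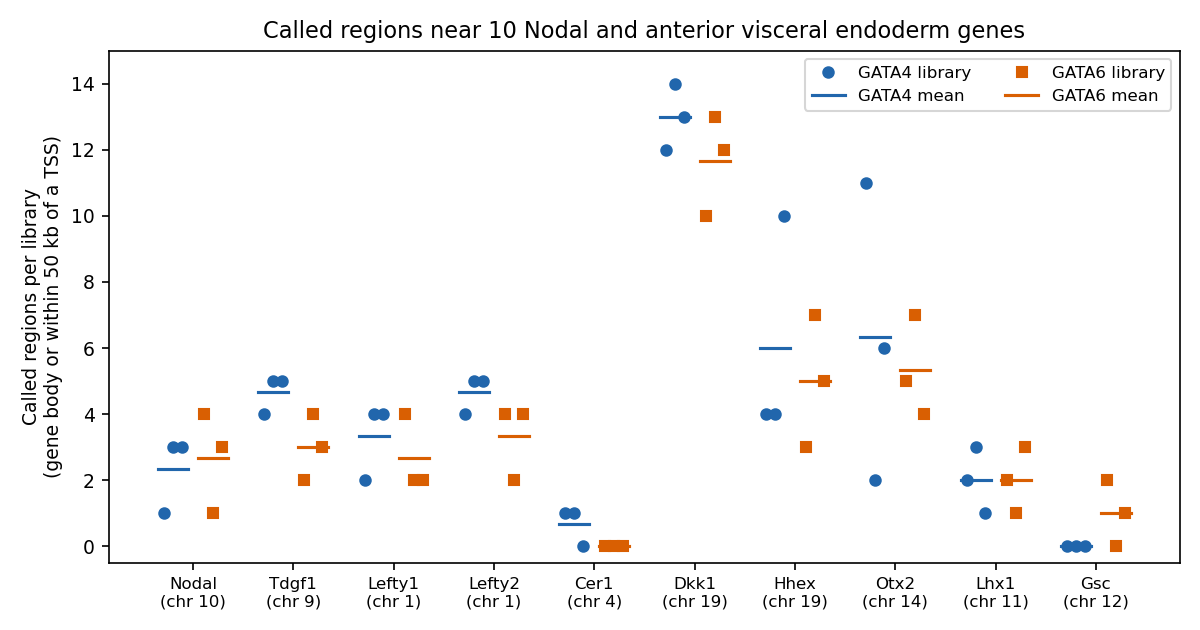
Number of called regions per library in the gene body or within 50 kb of a TSS (y axis) for the 10 genes (x axis, with chromosome), with each of the 3 GATA4 (circles) and 3 GATA6 (squares) libraries as a symbol and the mean as a line. Dkk1 had 10 to 14 regions in every library, Cer1 and Gsc 0 to 2, and at no gene did all libraries of one factor lie above all of the other.

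Tdgf1, the co-receptor gene, lies at chr9:110939603-110946158 on the minus strand. Its window held 4, 5 and 5 regions in the GATA4 libraries and 2, 4 and 3 in the GATA6 libraries. The lowest GATA4 library equalled the highest GATA6 library, and the difference of 1.67 regions gave a two-sided exact permutation p of 0.2 (n = 3 and 3). There were 3 GATA4 combined regions and 1 GATA6 combined region. The GATA4 region chr9:110937785-110938213, intergenic and 6658 bp downstream of the nearest Tdgf1 TSS, was the only combined one whose nearest protein-coding TSS was that of Tdgf1. Its maximum signal was 11, 7 and 8 in the GATA4 libraries and 7 and 10 in GATA6 replicates 1 and 3, with no call in GATA6 replicate 2. It was thus held by 5 of 6 libraries, and 1 missing GATA6 call kept it out of the GATA6 combined list. The percentile was 87.3, 47.2 and 39.1 in the GATA4 libraries, high in replicate 1 and near the middle of the list in the others. In GATA6 replicates 1 and 3 it was 93.9 and 98.1, high in both lists.

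The region called for both factors near Tdgf1, chr9:110951456-110951749 in the GATA4 list and chr9:110951290-110951994 in the GATA6 list, covered the TSS of Lrrc2, a leucine-rich repeat gene upstream of Tdgf1. By the GATA4 coordinates it lay 5298 bp upstream of the nearest Tdgf1 TSS. The maximum was 11, 7 and 9 in the GATA4 libraries and 8, 5 and 9 in the GATA6 libraries, so the ranges overlapped. A further GATA4 combined region, chr9:110955260-110956017, lay in an intron of Lrrc2, 9102 bp upstream of the nearest Tdgf1 TSS, with a maximum of 6, 8 and 6 and a GATA6 call in replicate 2 alone, at 7. Which gene, if any, these regions act on was not measured.

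At the Nodal antagonist genes Lefty2 (chr1:180893108-180899103, plus strand) and Lefty1 (chr1:180935022-180938400, plus strand), 1 region was called in all 6 libraries. It lay between them, at chr1:180902899-180903418 in the GATA4 list and chr1:180902895-180903828 in the GATA6 list. The nearest protein-coding TSS was that of another gene, 875 bp away by the GATA4 coordinates and 465 bp by the GATA6 ones. The GATA4 region began 8441 bp downstream of the nearest Lefty2 TSS and lay 31604 bp upstream of the nearest Lefty1 TSS. The maximum signal was 11, 13 and 11 in the GATA4 libraries, with percentiles of 91.5, 97.4 and 92.3. In the GATA6 libraries the maximum was 10, 9 and 5, with percentiles of 97.3, 95.7 and 45.8. All 3 GATA4 libraries and 2 of the 3 GATA6 libraries ranked it high in their lists, while the call of GATA6 replicate 3 that overlapped it ranked just below the middle. That library had a further call beside it, within the merged region chr1:180902895-180904573, with a maximum of 8 at percentile 90.8. Among the 8282 GATA4 combined regions it ranked 1247th by mean maximum signal, and among the 5170 GATA6 ones 2004th. The region counts were 4, 5 and 5 against 4, 2 and 4 at Lefty2 (exact permutation p = 0.3) and 2, 4 and 4 against 4, 2 and 2 at Lefty1 (exact permutation p = 1), GATA4 libraries first, and overlapped at both genes.

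Cer1, the gene of a secreted antagonist of Nodal, BMP and Wnt ligands, had the fewest regions. The plus and minus 50 kb around its TSS (gene at chr4:82881751-82885148, minus strand) held 1, 1 and 0 regions in the GATA4 libraries and 0 in each GATA6 library. Of all genes, 6.77% likewise had no region in any GATA6 library. The 2 regions were different ones. The first, chr4:82886569-82886842, lay 1421 bp upstream of the Cer1 TSS and was called in GATA4 replicate 2 with a maximum of 4 at percentile 1.46. The second, chr4:82905151-82905732, lay in an intron of Frem1 and was called in GATA4 replicate 1 with a maximum of 2. Neither was called again in another library, and the closest combined regions were 639947 bp (GATA4) and 2879727 bp (GATA6) away. At this depth no region was called repeatedly, which does not show that none exists.

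Dkk1, the Wnt antagonist gene at chr19:30545863-30549665 on the minus strand, had the most regions of the 10 genes. Its window held 12, 14 and 13 regions in the GATA4 libraries and 10, 13 and 12 in the GATA6 libraries, high in all 6 and overlapping between the factors (exact permutation p = 0.5). It accounted for 5 of the 11 GATA4 combined regions and 3 of the 7 GATA6 ones. Of all genes, 3.28% had 5 or more GATA4 combined regions and 6.39% had 3 or more GATA6 ones. On chromosome 19 these shares were 15.4% and 28.4%, since calls were dense along the whole chromosome: its genes had a median of 6.33 regions per GATA4 library, against 3.00 over all genes. The mean of 12.3 regions per library at Dkk1 exceeded that of 97.4% of all genes but of 77.6% of chromosome 19 genes. The part of this chromosome-wide density in the Dkk1 count was not tested.

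The Dkk1 regions formed a cluster downstream of the gene, in intergenic DNA for which Dkk1 has the nearest protein-coding TSS. The farthest GATA4 region, chr19:30509226-30512040, lay 37625 bp from the TSS, where signal peaked at 14, 11 and 13 in the GATA4 libraries and 6, 6 and 10 in the GATA6 libraries. The next, chr19:30513035-30515659, had 15, 16 and 13 in the GATA4 libraries and 6 and 6 in GATA6 replicates 2 and 3. A call of GATA6 replicate 1 with a maximum of 15 also overlapped it, but that call peaked within the third region, given next. The third, chr19:30515692-30517374, 32291 bp from the TSS, had 22, 21 and 22 in the GATA4 libraries and 15, 11 and 12 in the GATA6 libraries. In the GATA6 list the latter 2 formed a single region, chr19:30514160-30517067, because one call of GATA6 replicate 1 spanned both. This stretch held the most stacked fragments near any member in both lists.

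All of these were broad, 2815, 2625 and 1683 bp wide, where the GATA4 combined regions had a median width of 742 bp and a 99th percentile of 2255 bp. Their total signal ranked accordingly. The mean percentile over the GATA4 libraries was 99.8 ± 0.141, 99.8 ± 0.0316 and 99.8 ± 0.0748 (SD, n = 3), which placed them 84th, 73rd and 71st of 8282. By mean maximum signal, which is not summed over the region, they ranked 967th, 552nd and 129th. Among the 525 GATA4 combined regions of chromosome 19 they ranked 89th, 56th and 13th. The third region thus stood high on both scales, and the first and second mainly on the summed scale. Whether their width also raised the maximum was not tested. In the GATA6 list the pair of broad regions ranked 59th and 103rd of 5170 by total signal and 2518th and 375th by maximum signal.

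Closer to the gene, the region chr19:30526351-30527200 in the GATA4 list and chr19:30526743-30528197 in the GATA6 list lay 22465 bp and 21468 bp downstream of the TSS. Its maximum was 9, 5 and 10 in the GATA4 libraries and 5, 5 and 9 in the GATA6 libraries, with 1 lower and 2 higher values in the first group and the reverse in the second. The fifth GATA4 region, chr19:30549008-30549490, lay over coding sequence of Dkk1, 175 bp from the TSS. It was weak, with a maximum of 4, 4 and 7 and percentiles of 5.33, 28.7 and 47.0 in the GATA4 libraries, all in the lower part of their lists. By mean percentile it ranked 8250th of 8282. Among the GATA6 libraries replicate 2 alone called it, at a maximum of 6 and a percentile of 92.0. GATA6 replicates 1 and 3 called chr19:30550088-30550768 instead, 423 bp from the TSS, with maxima of 3 and 4. Replicate 3 also called chr19:30548417-30548977, 688 bp from it. Reducing every list to its upper 50% by total signal left Dkk1 with combined regions for both factors.

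**Figure D2:**
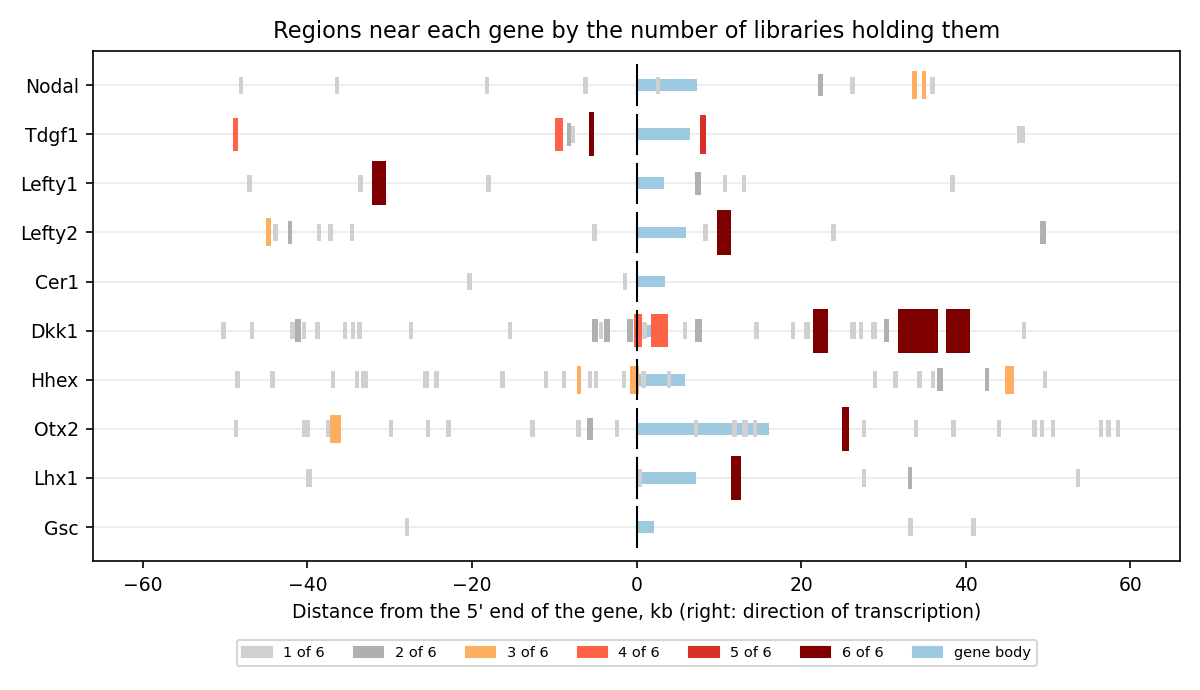
Merged regions near each gene (rows) by distance in kb from the gene's 5′ end (x axis), drawn to width with a minimum of 0.5 kb, and coloured and scaled in height by how many of the 6 libraries held them, with pale blue for the gene body. Regions in all 6 libraries stand downstream of Dkk1 (3 regions), Otx2 and Lhx1, upstream of Tdgf1 and between Lefty2 and Lefty1, where the rows show the same region, while the rows of Nodal, Cer1, Hhex and Gsc have none in more than 3.

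Among the transcription factor genes, Hhex lies on the same chromosome as Dkk1, at chr19:37434810-37440731 on the plus strand, and had 25 merged regions, none in more than 3 libraries. The GATA4 libraries held 4, 4 and 10 and the GATA6 libraries 3, 7 and 5, with GATA4 replicate 3 highest and the groups overlapping. Their mean of 5.50 exceeded that of 82.1% of all genes and of 47.0% of chromosome 19 genes. The region best placed for the gene itself, chr19:37433983-37435079, covered the Hhex TSS. It was called in GATA4 replicates 1 and 3 with a maximum of 4 and 8 and in GATA6 replicate 3 with 5, at percentiles of 86.0, 92.6 and 97.3. It was absent from the lists of GATA4 replicate 2 and GATA6 replicates 1 and 2. The region chr19:37427604-37428113, 6697 bp upstream, was called in GATA4 replicates 2 and 3 and GATA6 replicate 3, with maxima of 4, 5 and 7. The region chr19:37479596-37480722, 42857 bp downstream of the nearest Hhex TSS, was called in GATA4 replicate 2 and GATA6 replicates 1 and 2, with maxima of 4, 6 and 3. Each of these regions had its own set of libraries. Combined regions lay just beyond the window, 58195 bp (GATA4) and 58134 bp (GATA6) from the TSS.

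Otx2, at chr14:48657677-48673819 on the minus strand, had 27 merged regions, of which 24 were called in 1 library. The GATA4 libraries held 11, 2 and 6 and the GATA6 libraries 5, 7 and 4, with the highest and the lowest count both among the GATA4 libraries. Chromosome 14, like chromosome 19, carried many calls, with a median of 6.67 regions per library and gene for either factor, and Otx2 exceeded 43.1% of its genes. A single region was called in all 6 libraries, chr14:48647992-48648722 in the GATA4 list and chr14:48647993-48648836 in the GATA6 list. It lay 13210 bp downstream of the nearest Otx2 TSS by the GATA4 coordinates, in an intron of the lncRNA gene Gm49151. The maximum was 5, 10 and 3 in the GATA4 libraries and 6, 6 and 9 in the GATA6 libraries. The percentiles were 87.2, 81.0 and 36.6 and, for GATA6, 83.8, 14.6 and 94.6, so that each factor had 1 library in which the region ranked low.

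Lhx1, at chr11:84518284-84525535 on the minus strand, held 2, 3 and 1 regions in the GATA4 libraries and 2, 1 and 3 in the GATA6 libraries. Its combined region, chr11:84513254-84513927 in the GATA4 list and chr11:84512851-84514034 in the GATA6 list, began 8140 bp downstream of the nearest Lhx1 TSS by the GATA4 coordinates and covered the TSS of Aatf, a gene of ribosome biogenesis and transcription. The maximum was 8, 6 and 5 in the GATA4 libraries and 6, 3 and 4 in the GATA6 libraries, where the value of 3 was below that list's median. The GATA4 region held 68 CpG and 65.3% GC, the most GC of any combined region near a member, against a median of 51.6% over all GATA4 combined regions.

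Gsc, at chr12:104471209-104473330 on the minus strand, had no region in any GATA4 library and 2, 0 and 1 in the GATA6 libraries. Of all genes, 6.55% had no region in any GATA4 library. The 3 regions at Gsc were called once each. The region chr12:104432069-104432721 had a maximum of 3 in GATA6 replicate 1, chr12:104500946-104501474 had 4 in the same library, and chr12:104439998-104440299 had 8 in GATA6 replicate 3. The groups overlapped through the GATA6 library with 0 regions (exact permutation p = 0.4). The closest combined regions lay 414691 bp and 414793 bp away for GATA4 and GATA6.

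**Figure D3:**
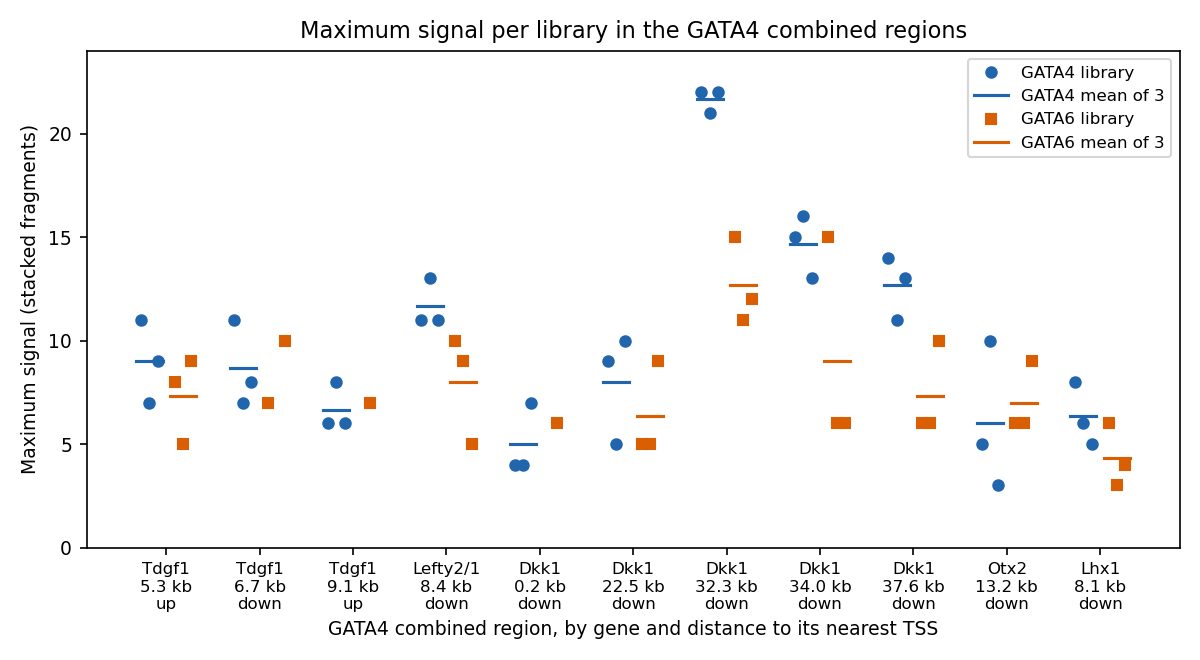
Maximum signal in stacked fragments (y axis, unscaled for depth) in the 11 GATA4 combined regions (x axis, by gene and distance in kb downstream or upstream of its nearest TSS), for each GATA4 library (circles) and each GATA6 library that called the region (squares), with lines at the mean where all 3 libraries called it. The Dkk1 region 32291 bp downstream reached 21 to 22 in the GATA4 libraries, and all other values lay between 3 and 16. The GATA6 replicate 1 value of 15 is drawn at both adjoining Dkk1 regions that its call spanned, though the call peaked in the one 32291 bp downstream. The levels of the GATA4 and GATA6 libraries are not on one scale.

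Whether the factors differed at any member was asked by the number of regions per library, 3 against 3, for which a two-sided exact permutation p cannot fall below 0.1. At 0 of the 10 genes did all GATA4 libraries hold more regions than every GATA6 library, a pattern found at 5.36% of all genes, and at 0 did the reverse hold, found at 1.49%. No member reached the smallest p, and over 21938 genes the Benjamini-Hochberg adjusted p of these permutation tests was 1 for each, with 0 genes at an unadjusted p under 0.05. Single libraries decided some of these patterns. Without GATA4 replicate 1, Tdgf1 and Lefty2 had more regions in each remaining GATA4 library than in any GATA6 library, as did 9.15% of all genes. Without GATA4 replicate 3, Cer1 showed this pattern, with 9.96% of all genes, and without GATA6 replicate 2, Tdgf1 did, with 8.98%. Without GATA6 replicate 2, Gsc showed the reverse, with 4.23% of all genes. Summed over the members, the libraries held 39, 38 and 43 regions for GATA4 and 33, 36 and 35 for GATA6. Per 1000 regions of the whole list this was 0.786, 0.815 and 0.888 against 0.710, 0.848 and 0.786, so that the groups, apart in raw numbers, overlapped once list length was taken into account.

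Most regions near the 10 genes were not called again. Of the 125, 92 (73.6%) were held by 1 library, against 83.2% over the whole series, and 7 (5.60%) by all 6, against 1.88% of all merged regions. The 7 were the Lrrc2 TSS region near Tdgf1, the region between the Lefty genes, 3 downstream of Dkk1, the Otx2 region and the Aatf TSS region near Lhx1. Of the 11 GATA4 combined regions, 7 had a member as the gene of the nearest protein-coding TSS (5 at Dkk1, 1 at Otx2 and 1 at Tdgf1), as did 4 of the 7 GATA6 regions (3 at Dkk1 and 1 at Otx2). Regions nearest to Aatf or Lrrc2 were among the rest. By midpoint, 53 of the 125 merged regions were intergenic, 55 intronic, 8 in a UTR, 7 in a non-coding exon and 2 in a coding exon. Among the combined regions near members, 7 of the 11 GATA4 and 4 of the 7 GATA6 ones were intergenic, against 44.9% and 45.7% of the whole lists.

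**Figure D4:**
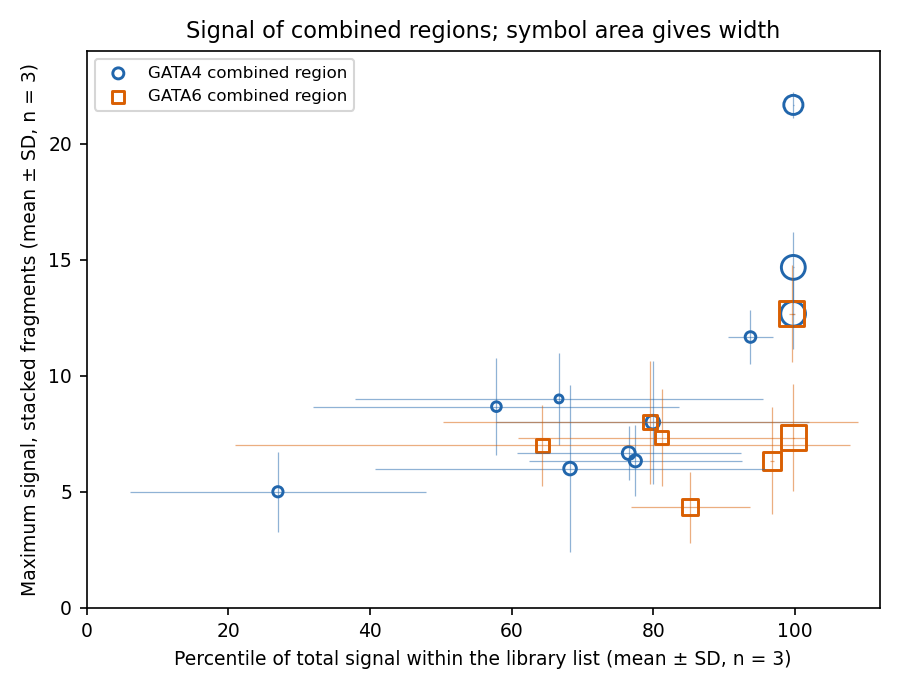
Mean percentile of total signal within the library lists (x axis, 0 to 100) against mean maximum signal in stacked fragments (y axis) for the 11 GATA4 (circles) and 7 GATA6 (squares) combined regions near members, with the SD over 3 libraries as bars and symbol area proportional to width. The broad regions downstream of Dkk1 crowd at a percentile above 99 and spread over maxima from 7.33 to 21.7, while the GATA4 region at the Dkk1 TSS sits at 27.0. Bars that pass 100 reflect the symmetric SD only.

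The GATA motif lay within 100 bp of the centre of maximum signal, a window of 201 bp, in 8 of the 11 GATA4 combined regions near members, against 46.0% of the whole GATA4 list. For GATA6 it was 5 of 7, against 36.3% of the whole list. The GATA4 regions without it were those at the Dkk1 TSS, at the Aatf TSS near Lhx1 and in the Lrrc2 intron near Tdgf1. The share depends on where regions lie. Of GATA4 combined regions more than 1 kb from any protein-coding TSS, 71.6% held the motif, as did 6 of the 7 near members. Of those within 1 kb, 18.7% held it, as did 2 of the 4 near members, among them the one over the Lrrc2 TSS. For GATA6 the shares were 60.9% against 3 of 4 farther out and 14.9% against 2 of 3 within 1 kb. Pooled over their whole length, the GATA4 regions near members held 4.30 motifs per kb, where the whole list held 2.51. The wide Dkk1 regions weigh most in this pooled value, which was not split by distance to a TSS. The densest were the nearer Dkk1 region downstream, with 7.06 per kb and 5 matches within 201 bp, and the Otx2 region, with 6.84 per kb, above 95.1% and 94.4% of the GATA4 list. The broad Dkk1 regions held 14, 11 and 7 motifs, or 4.97, 4.19 and 4.16 per kb. A match describes the sequence and does not show that a factor bound it.

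Promoter sequences of 8 of the 10 genes were matched by symbol in RefSeq (GRCm38), 11 promoters of 300 bp in all, from 250 bp before to 50 bp after each start. The motif was present in 3 of the 11, 1 of Tdgf1 and 2 of the 4 of Otx2, against 29.8% of 32851 mouse promoters. A region called in any library overlapped the promoters of Dkk1 and Hhex, each in 3 libraries, and no other of these 11. Not every GENCODE start is among them. At another Otx2 start, GATA4 replicate 3 alone called chr14:48661672-48662254, with a maximum of 6. The stretches upstream of the annotated Dkk1 and Hhex starts are shown because only these of the 11 promoters had calls. They are chr19:30549666-30549746 for Dkk1, on the minus strand, and chr19:37434591-37434809 for Hhex, on the plus strand, and capitals would mark the motif, which neither holds.
Dkk1 promoter: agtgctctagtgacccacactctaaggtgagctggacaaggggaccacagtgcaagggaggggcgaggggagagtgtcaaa
Hhex promoter: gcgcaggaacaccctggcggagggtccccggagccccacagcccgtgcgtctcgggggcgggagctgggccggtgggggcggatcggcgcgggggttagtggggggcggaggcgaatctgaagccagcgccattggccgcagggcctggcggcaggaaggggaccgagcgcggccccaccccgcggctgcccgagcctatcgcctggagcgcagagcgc

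Other genes of the same pathways were counted in the same way. Of 16 further Nodal pathway genes (receptors, SMADs, convertases, ligands and targets), 9 had a GATA4 combined region within the window and 6 a GATA6 one, 4 had both and 5 neither. Shares of all genes were the 48.2% and 38.3% given above. Foxh1, the DNA-binding partner of activated SMADs, had 4 and 2 combined regions for GATA4 and GATA6, and Gdf1, a ligand that pairs with Nodal, had 3 and 3. Acvr1c, a type I receptor gene, had no region in any library. Pcsk6, which encodes a convertase that matures Nodal, was the only one with more regions in every GATA4 library, 9, 12 and 8, than in any GATA6 library, 2, 6 and 4. Of 12 further genes of the anterior visceral endoderm or of Wnt antagonism and reception, 5 had a GATA4 combined region and 3 a GATA6 one, and 7 had neither. Foxa2, a forkhead factor of endoderm, had 5 GATA4 combined regions, 1 of them within 1 kb of a TSS, and no GATA6 one. Its counts were 9, 7 and 10 in the GATA4 libraries and 6, 4 and 5 in the GATA6 libraries, and at Lrp6, a Wnt co-receptor that Dkk1 binds, they were 5, 5 and 3 against 2, 2 and 2. At these 3 genes the libraries of the factors did not overlap, with the exact permutation p at its smallest value of 0.1 and an adjusted p of 1, and the share of all genes with this pattern was 5.36%.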

How the data were processed

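The authors mapped their paired-end reads with Bowtie2 2.3.4.1 to mm10, removed duplicates, reads with a mapping quality under 20, mitochondrial reads and blacklisted regions (Picard, SAMtools and bedtools, per the submitters' processing notes), and called regions in each library with SEACR 1.3 in stringent mode at a threshold of 0.01 without normalization. The deposited list of each library gives the total signal and the maximum signal of each region, unscaled for depth. The deposited combined lists hold positions only, those of regions present in all libraries of a factor. The reads left after filtering are unknown, so precision is given as the spread over 3 libraries.

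Groups and replicate numbers came from the sample titles. Here, regions were assigned to genes of GENCODE release M21 (all transcript starts of protein-coding genes, overlap of at least 1 bp), percentiles were ranked within each list, and sequence was read from GRCm38. A region's centre was the middle of the maximum-signal stretch of the library with the highest maximum. Region numbers per gene were compared by two-sided exact permutation tests of 3 against 3 libraries, adjusted by Benjamini-Hochberg over all genes. Same-numbered GATA4 and GATA6 libraries did not deviate together (Pearson r over genes of -0.0137, 0.0320 and -0.0284 for replicates 1, 2 and 3), so numbers were not taken to pair them. The members, the lists of further genes and the tests were chosen with earlier results of these data known. Every combined region near a member was named, with up to 3 of the most widely held regions for members without one. The gene nearest to 1 of these regions is not reported here. Simulated data were used to test the code for overlaps, merging and counts per gene, and the motif search was checked on set strings. Alternatives were other windows, other rules for combining, stricter and equal lists, other motif windows and leaving out each library. Python 3.11.15, numpy 2.4.6, scipy 1.17.1, pysam 0.24.0 and matplotlib 3.10.9 were used.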

Additional observations from a re-analysis of the deposited data

How the results depend on the processing

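Of 111 values of 8 results under alternative settings, 87 stayed within 1.5 times the reported count and 24 moved further. A window of 10 kb left 6 GATA4 and 3 GATA6 combined regions near members, 3 regions in all 6 libraries and 3 members with a GATA6 region (Tdgf1, Lefty2 and Lhx1). A window of 100 kb gave 19, 13 and 13 regions and added Hhex for both factors and Nodal for GATA4. With calls in at least 2 of 3 libraries there were 26 GATA4 and 19 GATA6 regions, 14 and 8 of them with the motif, and Nodal and Hhex joined the members with a region for either factor. The upper 50% of each list by total signal left 7 GATA4 regions and 3 members with a GATA6 region (Tdgf1, Dkk1 and Lhx1), and by maximum signal, a setting chosen after seeing the data, 9 GATA4 regions and 5 members for each factor. Searching the motif around region midpoints found it in 3 GATA6 regions.

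Leaving out 1 library in turn gave 11 to 18 GATA4 regions (18 without GATA4 replicate 1, 17 without replicate 3) and 7 to 13 GATA6 regions (11 without GATA6 replicate 1, 13 without replicate 2), 8 to 13 GATA4 and 5 to 8 GATA6 regions with the motif, and 0 to 2 members with more regions in every GATA4 library. A call in fewer libraries is then enough, by construction. With a replicate block, comparing same-numbered libraries, 2 members (Tdgf1 and Dkk1) had more GATA4 than GATA6 regions in every pair, as did 11.1% of all genes. The reverse held at 0 members (3.92% of all genes). The replicate numbers were not taken to pair the libraries, and whether they do is not known. Cer1 and Gsc had no combined region under any of these settings. Groups of 3 are too small for an outlier test.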
